A study of Caenorhabditis elegans with 4 samples.

Results

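Chromosome V was described through the 1788 HTP-3 peaks that a combined peak list places on it, out of 11713 on the 6 nuclear chromosomes of Caenorhabditis elegans. The members are all peaks with V as their chromosome, whatever their width or score; V itself was taken up with its low density already known. The same chromosome held 533 of 3295 peaks in the list of replicate 1 and 587 of 4006 nuclear peaks in that of replicate 2. V is the longest chromosome, with an extent of 20.9 Mb or 20.86% of the nuclear length covered by the lists, yet it held 15.27% of the combined peaks, 16.18% of the replicate 1 peaks and 14.65% of the replicate 2 peaks.

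The peaks come from chromatin immunoprecipitation sequencing (ChIP-seq) of HTP-3 in the strain fem-2(b245), whose allele is on chromosome III; fem-2 promotes male fates in sex determination. All 4 libraries, 2 ChIP and 2 input DNA, share this strain and are labelled as hermaphrodites at the stage of young adults with a germline, grown at 20 °C. The growth protocol speaks instead of gravid adults, so the stage is known only to that extent. For all 4 libraries whole worms were crosslinked, with the crosslinker EGS (20 min) and with EGS and formaldehyde (10 min). Somatic nuclei were therefore in the material as well as germline nuclei. Each ChIP library was made with 5 µg of antibody. Whether the replicates are separate cultures is not stated in the labels, and the spread between them may be technical. No values of the input libraries were used here.

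HTP-3 belongs to the HORMA-domain proteins and builds the axis of meiotic chromosomes, the protein core along which sister chromatids are held as loops. It recruits the related proteins HIM-3, HTP-1 and HTP-2 and is needed for pairing, for meiotic double-strand breaks and for synapsis. C. elegans chromosomes are holocentric, and each autosome has a gene-rich centre with low recombination between arms that are richer in repeats and recombine more. Each chromosome also has a pairing centre near one end, bound by a zinc finger protein, through which homologues find each other; on V this is the right end, bound by ZIM-2. Peaks in these lists are intervals in which the authors' peak caller found an excess of reads, so a stretch without peaks is a stretch without calls.

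V was the sparsest chromosome in peaks per length. It carried 85.5 combined peaks per Mb, against 127.1 ± 26.0 on the other chromosomes (SD, n = 5), a ratio of 0.673. The replicate lists gave 25.5 and 28.1 peaks per Mb on V, with a mean of 26.8 ± 1.83 (SD, n = 2). In replicate 2 V was the lowest of the 6 chromosomes (other chromosomes 35.2 to 51.9), while in replicate 1 X was marginally lower at 25.4. An exact permutation test (two-sided) that placed V among the 6 chromosomes gave p = 0.33 (adjusted p = 0.67 over 4 such tests), and 6 chromosomes cannot give a p below 0.17. V was taken up with its low density known, so this test has no valid null and no conclusion is drawn from it. The combined peaks covered 3.72% of V, the lowest share of any chromosome, although X followed closely at 3.74%.

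V had the largest share of its length in long peak-free stretches. Its median distance from one peak to the next lay within the range of the other chromosomes in every list. In the combined list and in replicate 2, however, only X had a longer median. The median distance between the midpoints of neighbouring combined peaks was 2.63 kb on V and 2.46 ± 0.532 kb on the other chromosomes (SD, n = 5) (exact two-sided permutation p = 1.0, adjusted p = 1.0, where 0.17 is the smallest p that 6 chromosomes allow). The replicates differed in direction: the median was 8.15 kb on V and 10.8 ± 4.62 kb on the others in replicate 1, but 14.0 kb and 11.8 ± 2.20 kb in replicate 2 (SD, n = 5). On chromosomes I to IV the medians ran from 2.03 to 2.32 kb in the combined list and from 9.78 to 12.95 kb in replicate 2, all below V. In replicate 1 they lay on both sides of V (6.43 to 12.4 kb). Distances under 1 kb made up 22.4% on V, 25.9% to 27.3% on I to IV and 17.5% on X in the combined list. The long distances were shared with X, the next sparsest chromosome. The upper quartile was 11.8 kb on V, 12.9 kb on X and 6.74 kb on III, the densest chromosome. The 90th percentile was 34.8 kb on V, 30.3 kb on X and 17.5 kb on III. Stretches of 50 kb or more without a combined peak made up 38.5% of V and 20.8% ± 7.13 of the other chromosomes (SD, n = 5), whose values ran from 11.4% on III to 26.8% on II. V ranked first in this measure in replicate 1 (80.3%, others 57.8% to 75.2%) and in replicate 2 (65.8%, others 33.7% to 57.2%). Of the 48 gaps of 100 kb or more in the combined list, 20 were on V, and the other chromosomes had between 2 and 10 each. These counts are not scaled to length, and V is the longest chromosome. A chromosome with fewer peaks per Mb tends to have more of its length in long gaps. The rank of V in gaps is therefore not independent of the low density with which it was taken up.

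**Figure D1:**
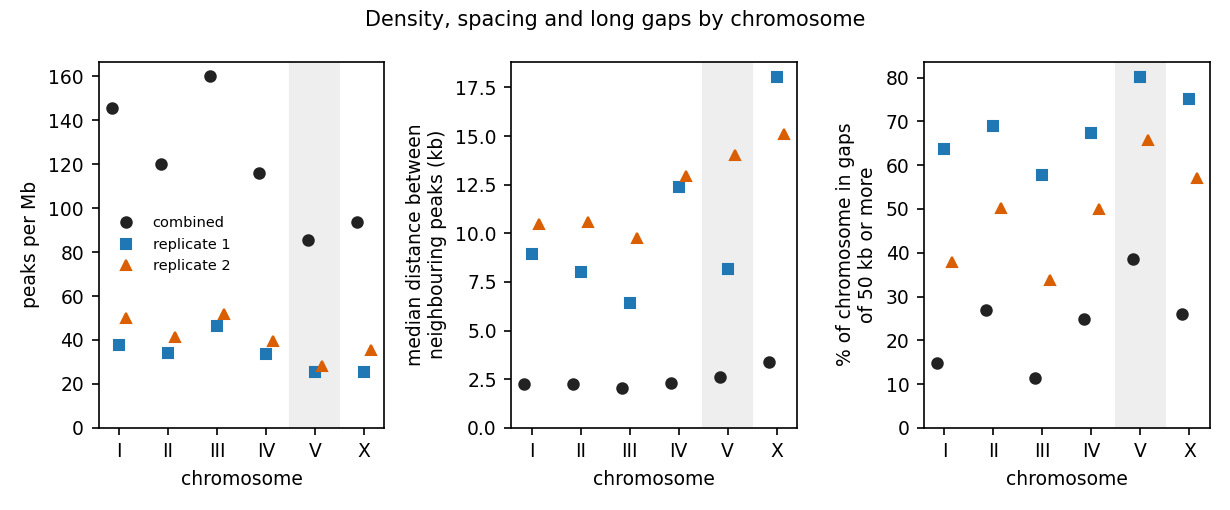
Peaks per Mb (left), median midpoint distance between neighbouring peaks in kb (middle) and percent of the chromosome in peak-free stretches of 50 kb or more (right) for the 6 nuclear chromosomes; each point is 1 chromosome in 1 list, and V is shaded. In all 3 lists V has the largest share in long gaps (38.5%, 80.3% and 65.8%). Its median distance lies within the range of the others, but in the combined list and in replicate 2 only X is higher.

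Leaving out the long gaps raises density most where gaps are most, so the densities outside them are given as a description. Outside gaps of 50 kb or more, V held 139.1 combined peaks per Mb, against 159.4 ± 20.5 on the others (SD, n = 5; range 127.0 to 180.6), a ratio of 0.872. In replicate 1 V held 129.1 per Mb outside gaps, above all the others (105.6 ± 3.31, SD, n = 5; range 102.4 to 109.4). The replicate 1 peaks on V include 41 in stretches without replicate 2 partners, described further on, against 0 to 12 such peaks on each other chromosome. These were not left out of that value. In replicate 2 the values were 82.2 and 80.8 ± 1.95. The number of peaks in a list sets how much of a chromosome falls in gaps of a given length, so these values were compared only within a list.

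**Figure D2:**
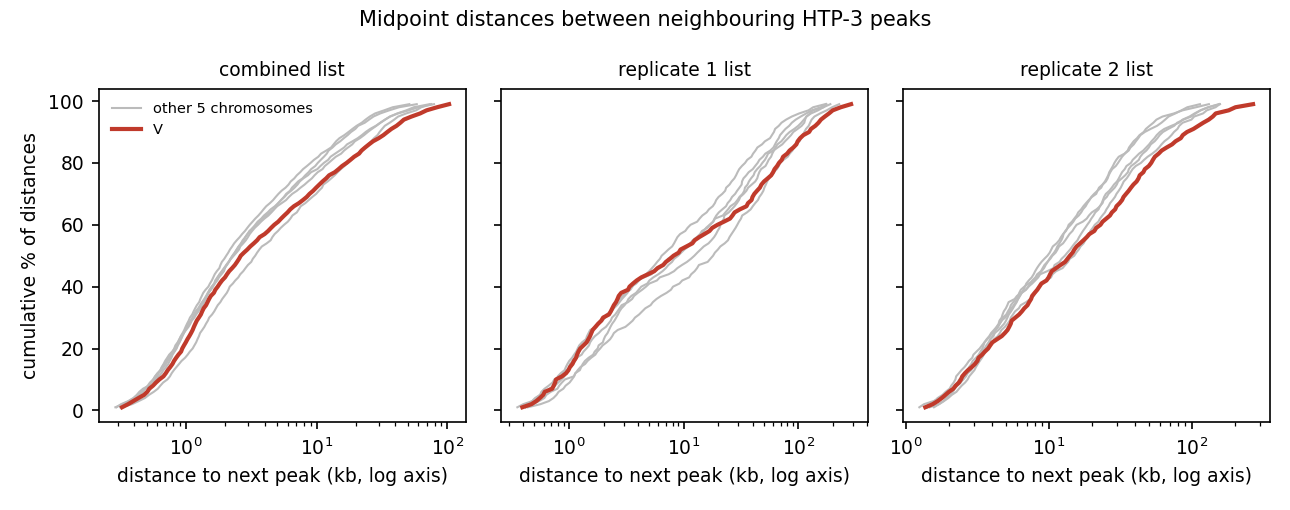
Cumulative percent of midpoint distances between neighbouring peaks (x axis in kb, log scale) in each list, with V in red and the other 5 chromosomes in grey. In the combined list the V curve runs between that of X and those of I to IV from the 10th percentile to the median (2.63 kb on V, 3.39 kb on X). At the 90th percentile (34.8 kb) it lies below all the others.

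Within V, peaks were densest in the middle and scarcest in the right part. Cut into 3 equal parts, V held 76.2 combined peaks per Mb on the left (531 peaks), 119.3 in the centre (831 peaks) and 61.1 on the right (426 peaks). Replicate 1 had 20.95, 35.2 and 20.4 per Mb, and replicate 2 had 25.3, 38.6 and 20.4. The centre was the densest part in every list, and the right part was the least dense; in replicate 1 it held 142 peaks against 146 on the left. The density of the centre was 1.74 times that of the outer parts by combined peaks, and the replicate lists gave 1.70 and 1.69. No test was made of these contrasts, and they are given as descriptions.

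The outer parts set V apart from the other chromosomes more than its centre did. The outer parts of V held 68.7 combined peaks per Mb, the lowest of 6 chromosomes (others 94.6 to 139.6), a ratio of 0.622 to their mean. The centre of V was second lowest, above X, with a ratio of 0.743. The ratios of outer parts and centre were 0.666 and 0.798 in replicate 1, and 0.6115 and 0.686 in replicate 2. X has no dense centre (92.5 combined peaks per Mb there and 94.6 in its outer parts), which lowers the mean for the centre. Among the autosomes the centre of V was the lowest in every list. By combined peaks it held 119.3 per Mb, against 149.4 to 200.7 on I to IV. The right part taken alone stood at 0.516 of the mean of the other chromosomes by combined peaks, and at 0.614 and 0.513 by the replicate lists, and was the lowest right part in each list. The left part stood at 0.745, 0.725 and 0.724 and was the second lowest each time, above the left part of II. Left and right have no shared meaning between chromosomes, and the left part of II, on its pairing centre side, came close to the right part of V: 62.9 against 61.1 combined peaks per Mb, 18.5 against 20.4 in replicate 1 and 23.0 against 20.4 in replicate 2. These differences between chromosomes were not tested.

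In 42 bins of about 498 kb the combined list had between 12 and 98 peaks per bin, with a median of 39.5. The bin with most peaks lay off centre, in the left part, at 5972552 to 6470264, with 98 combined peaks, 30 in replicate 1 and 39 in replicate 2. It ranked first in replicate 2 and second in replicate 1. Its place depended on the list and the bin: the densest bin had its middle at 6.22 Mb here, but at 10.7 Mb in replicate 1 and at 10.5 Mb in combined bins of about 1 Mb. A second and broader dense zone was the longest run of bins at or above the V mean, 14 bins from 7963402 to 14931378. It covered 33.3% of V and held 49.0% of the combined peaks, 50.3% of the replicate 1 peaks and 49.1% of the replicate 2 peaks. Its middle, at 11.45 Mb, lay to the right of the middle of the chromosome at 10.45 Mb, while the median position of all combined V peaks was 10.25 Mb. Counts were lower between this zone and the densest bin: the bin at 6967977 to 7465689 had 34 combined peaks, 8 in replicate 1 and 7 in replicate 2.

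The next densest bins were at 9954253 to 10451965 with 81 combined peaks, at 11447391 to 11945102 with 78 and at 10451966 to 10949677 with 75. The last of these was the richest bin of replicate 1, with 37 peaks, and ranked sixth in replicate 2, with 22. Of the 37, 7 belong to a stretch without replicate 2 partners that is described further on, and the 30 others equal the number in the bin at 5972552. The fifth densest bin was the last of the chromosome, 20406218 to 20903930, with 67 combined peaks, 18 in replicate 1 and 21 in replicate 2. Over the 42 bins the numbers of replicate 1 and replicate 2 peaks were correlated with r = 0.735 (Pearson) and rho = 0.796 (Spearman), given as a description, since bins of a chromosome share its libraries and are not independent.

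**Figure D3:**
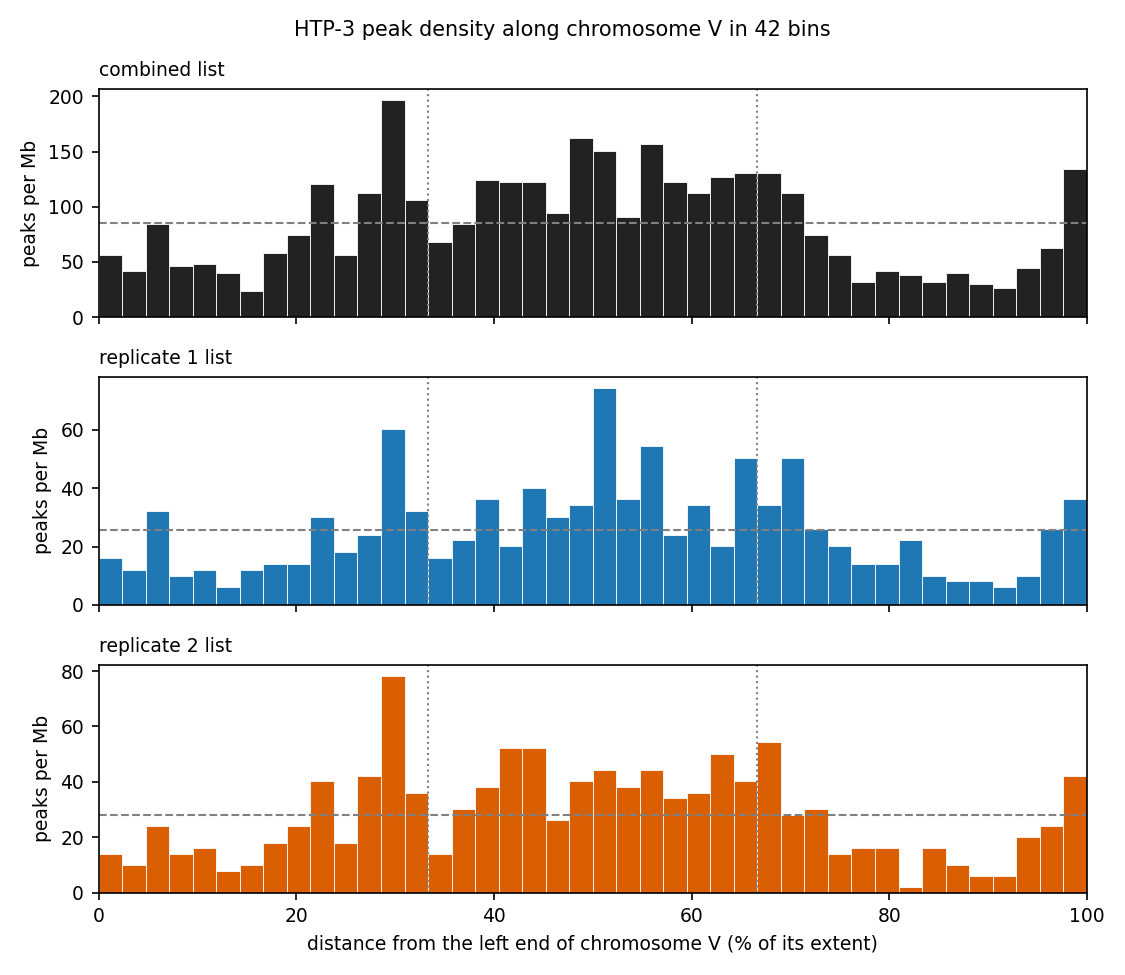
Peaks per Mb in 42 equal bins along V for the combined list and each replicate list, plotted against the distance from the left end in percent of the chromosome; dashed lines are the list means and dotted lines the borders of the 3 equal parts. The combined list peaks at 196.9 per Mb in the left part, stays above its mean over a broad zone around and right of the middle, and is low over most of the right part before the last bin at 134.6.

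The sparsest bins gathered on the right. The longest run of bins with under 50% of the V mean comprised 7 bins from 15926804 to 19410792, a length of 3.48 Mb. It held 120 combined peaks, 34.4 per Mb, along with 41 peaks of replicate 1 (11.8 per Mb) and 36 of replicate 2 (10.3 per Mb). This run was 16.7% of V and contained 6.71%, 7.69% and 6.13% of the peaks of the 3 lists. The bin with the fewest peaks was elsewhere, in the left part at 2986276 to 3483988, with 12 combined peaks, 6 in replicate 1 and 5 in replicate 2. The next 4 all lay in the run: 13 peaks at 18913080 to 19410792, 15 at 18415367 to 18913079, and 16 in each of the bins that begin at 15926804 and 17419942. Each of these bins held between 3 and 8 peaks in either replicate.

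The long gaps followed the same order. V had 97 gaps of 50 kb or more, 8.05 Mb in all. They took up 41.2% of the left part (35 gaps), 20.8% of the centre (19 gaps) and 53.5% of the right part (43 gaps). Inside the sparse run of 7 bins they took up 65.4% of the sequence. Of the 97 gaps, 89 had no peak of either replicate wholly inside, 7.29 Mb in all; 10 replicate 1 peaks and 1 replicate 2 peak lay inside the other 8. Because the combined list contains nearly all replicate peaks (95.9% and 98.0% of those on V overlapped a combined peak), the emptiness of these gaps in the replicates is not independent of how the list was made.

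The 5 longest gaps were spread over the 3 parts. The longest, 213.5 kb, ran from 19194315 to 19407852 and the next, 198.5 kb, from 16046153 to 16244620, both on the right, as did the third, 167.7 kb from 16370188 to 16537852. The fourth interrupted the centre for 165.1 kb, from 7248070 to 7413182, in that bin of 34 peaks, and the fifth lay on the left, 164.2 kb from 3803591 to 3967793. None of these 5 had a replicate peak wholly inside. In the shorter replicate lists the longest stretches were 352.7 kb in replicate 1 (18614857 to 18967571) and 469.9 kb in replicate 2 (19050925 to 19520829). The combined list had 5 and 14 peaks in them, respectively. Replicate 2 had a gap of 352.1 kb at almost the same place as that of replicate 1, from 18615144 to 18967262.

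The pairing centre end behaved differently over its whole outer part and at its tip. Over the outer parts the right end held fewer peaks than the left (combined ratio 0.802, replicate ratios 0.973 and 0.807). Over the outermost 0.5 Mb the order was the opposite: 69 combined peaks on the right and 28 on the left, a ratio of 2.46. Replicate 1 had 18 and 8 there, and replicate 2 had 21 and 7, ratios of 2.25 and 3.00. The excess was uneven within this length. In windows of 100 kb centred 150 and 450 kb from the end, the right had 30 and 23 combined peaks and the left 11 and 3. In those centred at 250 and 350 kb the right had fewer, 3 and 2 against 4 and 6. Over the outermost 1 Mb there were 99 and 49 combined peaks, and the replicate lists had 31 and 14, and 33 and 12. At 2 Mb the combined ratio had come down to 1.17. Without the outermost 1 Mb on both sides, the right part held 54.8 combined peaks per Mb and the left 80.8, a ratio of 0.678. The lengths of 1 and 0.5 Mb were added after the density along V had been seen, and no test was made. Distances on the right were taken from the last peak end in any list, and those on the left from the first base. The limits on the right would move outward if the chromosome runs on beyond that last peak.

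Other pairing centre ends did not all share this form. The ratio of the pairing centre end to the opposite end over the outermost 0.5 Mb of the combined list was 1.79 on IV and 1.11 on I, but 0.468 on II, 0.456 on III and 0.645 on X, so that V had the highest of the 6. Over 1 Mb V was still highest, at 2.02 against 1.545 on IV. Over 2 Mb IV was higher (1.68 against 1.17 on V), with 1.49 against 1.48 in replicate 2 and 0.860 against 1.11 in replicate 1. Per Mb, the outermost 0.5 Mb on the right of V held 138 combined peaks. Both ends of I (162 and 146) and the right ends of II (154) and III (206) held more, and the remaining ends fewer. Relative to the mean density of its own chromosome, the outermost 0.5 Mb of V stood at 1.61 by combined peaks, with 1.41 and 1.50 by the replicate lists. The corresponding values on the other 5 chromosomes ran from 0.588 to 1.11 in the combined list. Over the outermost 2 Mb V stood at 0.778 of its own mean by combined peaks, IV at 0.781 and the rest at 0.441 to 0.714. Pairing centre assignments are textbook knowledge, and the positions of the binding motifs were not located in these coordinates.

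**Figure D4:**
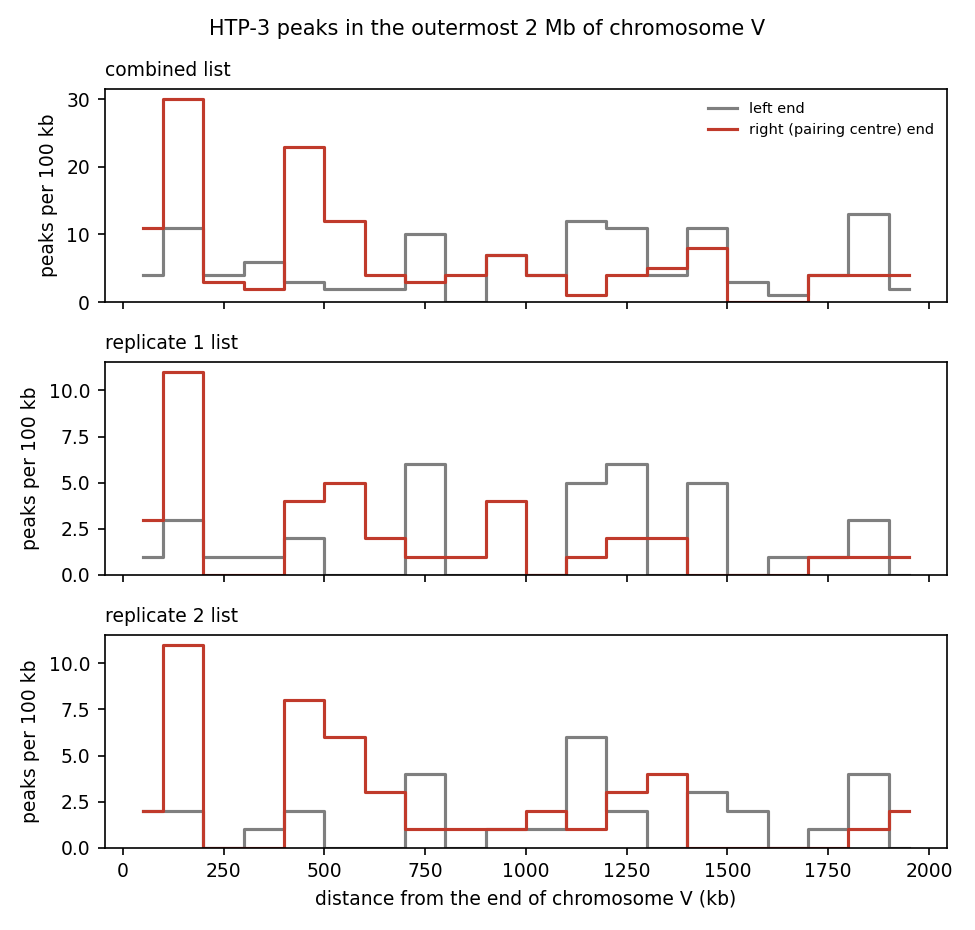
Peaks per 100 kb within 2 Mb of the left end (grey) and of the right, pairing centre end (red) of V, by distance from the end in kb, in each list. The right end shows its highest count between 100 and 200 kb from the tip, with 30 combined peaks and 11 in each replicate; the left end has 11, 3 and 2 there.

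Part of the peaks at the right tip fell into tight groups. A cluster was defined as 5 or more combined peaks, each at most 2 kb edge to edge from the next, and the largest of all clusters on V lay 484.1 kb from the right end. It had 26 peaks in 24.0 kb, from 20395809 to 20419830, which covered 44.4% of that stretch. Measured from the last peak end, the 0.5 Mb limit used for the end counts falls within this cluster, so only part of it is among the 69 peaks counted there. If the chromosome runs on beyond that peak, the limit moves to the right and less of the cluster is counted. The 69 and its ratio to the left end therefore depend on where the right end is put. Replicate 1 had 8 peaks in it and replicate 2 had 9, and 8 of the 26 combined peaks were in both replicates, 10 in replicate 2 only and 8 in neither. Its scores were moderate: the highest, 22.0, was at percentile 81.4 of all combined peaks, where the score is the authors' own value per peak on a scale that is not stated. Nearer the tip were a cluster of 10 peaks at 20776712 to 20785499 and one of 8 peaks at 20710161 to 20717060, with 4 and 5 replicate 1 peaks and 3 replicate 2 peaks each. Both are wholly among the 69, and the end ratio without the clusters was not computed. In the outermost 100 kb the right end had 11 combined peaks. The highest-scoring, at 20828755 to 20829112 (score 45.8), was in both replicates, and the last 3, from 20879353 on, were in neither.

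The left tip had 4 combined peaks in its first 100 kb, the last of which ended at 9265. The highest-scoring was a peak of 1246 bp at 8020 to 9265, with a score of 53.2 and a peak in each replicate. The first peak of the chromosome, 109 to 305, had a score of 1.66, which lies at percentile 0.623 of the list, and was met by a replicate 2 peak at 1 to 707 and by none in replicate 1.

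Across V, 70 clusters held 518 combined peaks, 29.0% of the total, in 2.74% of the sequence. The share on the other chromosomes was 30.4% ± 3.46 (SD, n = 5), and V lay within their range of 24.8% to 33.4%. In replicate 1 V had the highest share, 16.5% against 7.82% ± 4.02 on the others (SD, n = 5; range 1.76% to 12.2%), and 13.8% without the 3 stretches described further on. In replicate 2 the share on V was 0.852%, in 1 cluster. The clusters were most frequent in the centre, which had 38 of them with 32.3% of its peaks. The left part had 17, with 24.3% of its peaks, and the right part had 15, with 28.4%. Clustered peaks were wider than the others (median 378 bp against 277 bp), and 30.9% of them were in both replicates against 18.3% of the others. The part of width in the difference in support was not tested. Clusters had a median of 6 peaks and 7.36 kb, and 57 of the 70 met a peak of each replicate.

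The second largest cluster, 16 peaks in 19.3 kb from 6000233 to 6019487, lay in the densest bin. It met 6 replicate 1 peaks and 5 replicate 2 peaks, and the broadest of the latter, 5577 bp at 6015523 to 6021099, had a score at percentile 92.5 of replicate 2. The third largest, 14 peaks from 14828423 to 14851503, differed from both: 84.7% of its 23.1 kb was covered, 17 replicate 1 peaks met it, and no replicate 2 peak did.

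That cluster was part of a wider disagreement between the replicates on V. Of the 533 replicate 1 peaks on V, 435 overlapped a replicate 2 peak by at least 1 bp (81.6%, 95% Wilson interval 78.1 to 84.7). On every other chromosome the share was between 88.2% and 89.0%. In the other direction V did not stand out, with 305 of 587 replicate 2 peaks (51.96%, interval 47.9 to 56.0) against 48.9% to 53.8% elsewhere. Intervals cover counting error only and take neighbouring peaks as independent.

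Of the 98 replicate 1 peaks on V without a partner, 41 lay in 3 stretches and 57 elsewhere. Runs of 5 or more consecutive replicate 1 peaks, none of which met replicate 2, were looked for after the overlap on V had been seen. The longest of the 3 runs on V had 21 peaks. The other 5 chromosomes had at most 2 runs each, and none longer than 7 peaks. Outside the runs, 435 of 492 replicate 1 peaks on V overlapped replicate 2 (88.4%, interval 85.3 to 90.95), within the 88.2% to 90.4% on the other chromosomes treated in the same way. Since the runs were chosen for having no partner, the share outside them had to rise, and it is given as a description. The same search in replicate 2 gave 10 runs with 65 peaks on V, where the other chromosomes had 9 to 16 runs with 55 to 97 peaks. The longest on V, 13 peaks from 14420698 to 14661423, was longer than any run elsewhere (6 to 10 peaks), and its highest score was at percentile 76.5 of replicate 2.

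The first stretch, 10446559 to 10477485, had 9 replicate 1 peaks in 30.9 kb and no replicate 2 peak. Its strongest replicate 1 peak, 2865 bp wide, was at percentile 97.25 of that list, with a score of 2152.2. The second, 14754735 to 14851082, had 21 replicate 1 peaks in 96.3 kb, among them 1 of 5325 bp at percentile 98.65, and a single replicate 2 peak that met none of them. The third, 16965597 to 17394561, had 11 replicate 1 peaks in 429.0 kb, again with a single replicate 2 peak that met none of them. The highest score in the third was 2103.2, so each stretch held at least 1 high-scoring replicate 1 peak among weaker ones.

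The third stretch lay in the sparse run on the right. A pair of clusters of combined peaks, 17120592 to 17125870 with 6 peaks and 17128287 to 17131941 with 5, stood in it: the midpoints of the 6 peaks were between 850.5 and 1020 bp apart, and those of the 5 between 686 and 1074 bp. Their scores lay in a narrow range, 6.03 to 8.17. Replicate 1 had 1 peak of 6793 bp over the first of them and 1 of 4047 bp over the second.

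**Figure D5:**
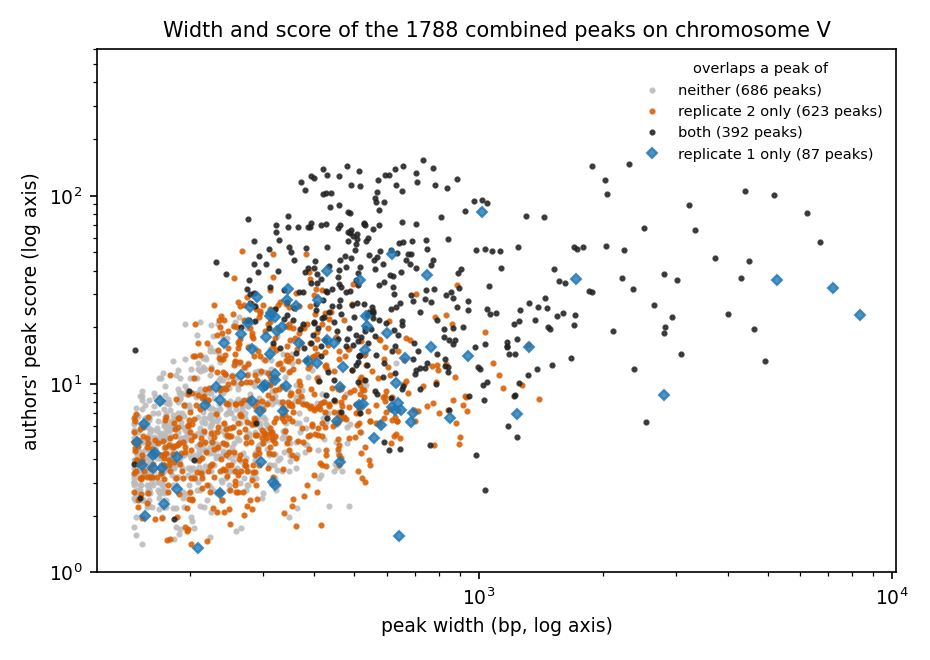
Width in bp and the authors' score (both log axes) of the 1788 combined peaks on V, marked by the replicate lists they overlap. Peaks in both replicates (392) lie at the wide, high-scoring side and those in neither (686) at the narrow, low-scoring side; of the 3 widest, the first and second are in replicate 1 only.

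The stretches also held the widest combined peaks on V. The widest, 8356 bp at 14837663 to 14846018, had a score of 23.2; it overlapped 8 replicate 1 peaks and no replicate 2 peak. The second, 7196 bp at 10470397 to 10477592, had a score of 32.3, overlapped 4 replicate 1 peaks and likewise none of replicate 2. The third, 6689 bp at 3434497 to 3441185, was met by single peaks of 6786 bp in replicate 1 and 7351 bp in replicate 2, both with a score of 3100. That is the highest value of either list on V, and 6 replicate 1 peaks and 3 replicate 2 peaks on V share it. Without the 3 stretches the widest combined peak on V was this one, and 58 in place of 87 combined peaks were in replicate 1 only. With the 0.556 Mb of the stretches also left out of the length, the density of V relative to the other chromosomes was 0.674 by combined peaks and 0.683 by replicate 1 peaks. The centre to outer part ratio was then 1.74 and 1.78, and the right to left ratio 0.786 and 0.815.

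Most peaks on V were narrow. The combined peaks had a median of 290.5 bp (quartiles 202 and 459 bp), 102 of them (5.70%) were 1 kb or wider and 6 exceeded 5 kb. The median of the other chromosomes was 299.1 ± 8.82 bp (SD, n = 5; exact two-sided permutation p = 0.83, adjusted p = 1.0). Replicate 1 had a median of 479 bp and replicate 2 of 1357 bp. In the 238 places on V where exactly 1 peak of a replicate met exactly 1 of the other, replicate 2 was wider in 236, by a median of 3.36 times, with midpoints a median of 113.5 bp apart. Width differed little between the left part, the centre and the right part in the combined list, with medians of 291, 298 and 282 bp. In replicate 2 the medians were 1302.5, 1591 and 1183 bp, so the centre had the widest peaks and the right part the narrowest.

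Of the combined peaks on V, 392 (21.9%, 95% Wilson interval 20.1 to 23.9) overlapped peaks of both replicates, 623 (34.8%) replicate 2 only, 87 (4.87%) replicate 1 only and 686 (38.4%, interval 36.1 to 40.6) neither. The share in both was the lowest of the 6 chromosomes, but by a small margin: the others averaged 22.7% ± 0.589 (SD, n = 5; exact two-sided permutation p = 0.33, adjusted p = 0.67). Without the 3 stretches it was 22.5% on V. The stretches were chosen for having no replicate 2 partner, so this share had to rise. Runs on the other chromosomes were not left out of their mean, and no conclusion is drawn from the 22.5%. Peaks in both had a median width of 573.5 bp and a median score of 28.7; those in neither had 210 bp and 5.19. By part, 22.4% of the left, 22.4% of the centre and 20.4% of the right peaks were in both. The intervals of these shares overlapped (19.1 to 26.15, 19.7 to 25.3 and 16.9 to 24.5).

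The median V peak stood at percentile 49.1 of combined scores, 49.1 of replicate 1 scores and 47.5 of replicate 2 scores, where V was the lowest of the 6 chromosomes (others 49.96 to 51.83). Peaks in the top 10% of the combined list by score made up 8.78% of V peaks, with 9.79% on the left, 7.94% in the centre and 9.15% on the right. The median percentiles of the left part, centre and right part were 50.7, 47.1 and 50.1 by combined scores. The replicates did not share this order: they were 55.7, 48.7 and 45.1 in replicate 1 and 49.7, 50.1 and 40.1 in replicate 2, with the right part lowest in each. The 5 highest-scoring peaks in both replicates all lay in the centre or the right part. The first, 732 bp at 15001989 to 15002720, had a score of 154.1, and 13 nuclear combined peaks scored higher. It was followed by 7774978 to 7777282 (score 147.8), 15511477 to 15512132 (143.9), 7720479 to 7720957 (143.1) and 12317305 to 12319186 (143.1). The replicate peaks at these 5 sites were between percentiles 92.9 and 94.3 in replicate 1 and between 89.4 and 96.3 in replicate 2.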

How the data were processed

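Peak positions and scores were taken as deposited; the authors called replicate peaks with MACS and the combined list with MACS v2, per the file headers and source columns, on build WS220. The submitters' processing notes name BWA and ce10. The peak score is the authors' deposited value, its scale is not stated, and it was used only within a list. No source used here gives the thresholds, the control or how the combined list was made, and read depth is unknown. The lowest score was 1.3 in the combined list and 50.02 and 50.01 in the lists of replicates 1 and 2. The lists need not be equally strict, and the part of this in the share of combined peaks in neither replicate was not tested. Starts and ends are positions in bp in GFF format, per the file headers.

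Measures were computed in Python 3.11.15 with pandas 2.3.3, numpy 2.4.6 and scipy 1.17.1, and plotted with matplotlib 3.10.9. The extent of a chromosome was the largest peak end in any list. Peaks were placed by midpoint; overlap meant 1 bp or more. Interval measures were tested on simulated peaks. Tests were 4 exact permutations of V among 6 chromosomes with Benjamini-Hochberg adjustment. The test on density, which counts in that adjustment, was made on a value known when V was taken up. Regions named were the 5 highest-scoring peaks in both replicates, the 5 densest and 5 sparsest bins, the 5 longest gaps, the 3 largest clusters, the 3 widest peaks and the peaks at both ends. Stretches of replicate 1 peaks, the bin of 34 peaks, the dense and sparse runs and the clusters near the right end were singled out after their values were seen. The members, lists and contrasts were chosen with earlier results of these data known. No genome of the files' build was used, so no sequence or gene is given for a peak.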

Additional observations from a re-analysis of the deposited data

How the results depend on the processing

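The 10 results were recomputed under 55 settings in all, of which 28 kept the direction and, for values without a test, moved by no more than 1 SD between the replicates; 23 moved by more and 4 changed direction. The results with a test passed no threshold in any list, which the design does not allow. Each replicate list alone stands for leaving out the other replicate, although it also differs in caller and list length. The median distance on V relative to the other chromosomes, 1.07, was 0.758 to 1.19 without a replicate; without the 3 stretches replicate 1 gave 0.872. The right to left ratio of 0.802 became 1.17, 2.02 and 2.46 over the outermost 2, 1 and 0.5 Mb, the last 2 chosen after seeing the data, 0.678 without the outermost 1 Mb, and 0.807 to 0.973 without a replicate. The centre to outer part ratio of 1.74 ran from 1.69 to 1.70 without a replicate and was 1.62 in the higher-scoring 50% of peaks, 1.67 with peaks under 500 bp apart merged, 1.89 by covered length and 2.22 with the outer 25% on each side. The middle of the densest bin, at 6.22 Mb, was at 6.22 to 10.7 Mb without a replicate and at 10.5 Mb in 1 Mb bins. The share of V in long gaps, 38.5%, was 65.8% to 80.3% without a replicate, 60.2% in the higher-scoring 50%, and 64.1% and 12.9% for gaps of 25 and 100 kb or more. The share of peaks in clusters, 29.0%, was 0.852% to 16.5% without a replicate, 12.4% in the higher-scoring 50%, 8.34% after merging, 17.1% and 46.5% with links of 1 and 5 kb, and 50.7% for clusters of 3 or more. The median score percentile of V, 49.1, was 47.5 to 49.1 without a replicate. With a reciprocal overlap of 50% the share in both replicates on V was 0.699 of that elsewhere, against 0.966.

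Read depth, input values and an annotation of the build were not used, so what sets the gaps was not tested. No paired analysis was possible because the groups that share replicate numbers are ChIP and input, and no input values were used here. Ratios between parts of V were taken within each list.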
